A study of Mus musculus with 10 samples.

Results

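The genes described here carry out DNA replication or supply its nucleotides. They were a named list of 44 genes, chosen by what their products do and not by their values, and 43 of them were measured among the 12393 genes of the table. Earlier results of these data were known when the list was drawn up. Chaf1a was not represented by a probe set with that symbol alone and is not analysed here. Expression was measured on 10 Affymetrix 430A 2.0 mouse arrays, each hybridised with RNA of intestinal epithelium from C57BL/6 mice, in 5 groups of 2 arrays.

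The ISC group held Lgr5-positive stem cells, sorted by green fluorescent protein from Lgr5-eGFP-Cre mice. The Ent-Pro group held crypt epithelium and the ENT group villus epithelium, both from Atoh1-/- mice, which are labelled as lacking secretory cells. The Ent-Pro cells are labelled enterocyte progenitors and the ENT cells mature enterocytes. Secretory progenitors of the crypt (Sec-Pro) were enriched either by deletion of Rbpj, which encodes the DNA-binding partner of Notch (Rbpj Sec-Pro), or by treating mice with dibenzazepine, a Notch inhibitor (DBZ Sec-Pro). Apart from ISC, the groups are epithelial preparations released with EDTA and not sorted cells, so each can hold several cell types. ISC differ from all other groups in sorting and in genotype, and these cannot be told apart from the cell type. DBZ Sec-Pro differ from ISC in dibenzazepine treatment as well, and in Sec-Pro against ISC the drug cannot be told apart from the cell type either. Sec-Pro differ from Ent-Pro and ENT in genotype or treatment, by Rbpj deletion or dibenzazepine against Atoh1-/-. In any comparison of Sec-Pro with Ent-Pro or ENT, these too cannot be told apart from the cell type. ENT were released by 25 min in 5 mM EDTA, and the crypt groups Ent-Pro and Sec-Pro by 50 min, so time in EDTA cannot be told apart from villus against crypt in any comparison of ENT with a crypt group. The labels name no promoter or Cre line that drove the deletion of Rbpj or Atoh1, and they leave unsaid whether replicate arrays hold RNA of different mice. The p-values therefore measure the spread between these arrays, which may be technical.

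The array values are log2 levels, in which a difference of 1 is a doubling, and medians of the arrays lay between 6.83 and 6.98. Stem markers were highest in ISC, with a mean level of 10.8 and 10.5 on its arrays. Goblet cell markers had mean levels of 13.1 to 13.6 in Sec-Pro, of 6.13 to 6.43 in Ent-Pro and ENT, and of 10.7 and 10.9 on the sorted ISC arrays. Paneth cell markers stood at 11.2 and 11.9 in ISC, 12.9 to 13.8 in Sec-Pro and 7.17 to 9.39 in Ent-Pro and ENT. Tuft cell markers had mean levels of 10.2 and 9.57 in ENT, 6.40 and 5.79 in Ent-Pro, and 7.495 and 6.55 in ISC. Enterocyte markers were high in ENT (13.7 and 13.8) and also in Sec-Pro (12.4 to 13.6), beside 12.9 and 12.6 in Ent-Pro. Rbpj Sec-Pro replicate 1 stood apart from replicate 2 for the replication genes. All 43 members were lower on replicate 1, by a median of 0.46, while 51.7% of all genes were. The mean of 10 leukocyte markers was 8.92 on replicate 1 and 7.03 on replicate 2, that of 6 stem markers was 7.84 and 9.16, and that of 4 tuft markers was 6.995 and 9.60, the widest gap of these lists. The part of these markers in the members' levels was not tested.

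Chromosomes are copied once per cell cycle. In G1 the origin recognition complex, with Cdc6 and Cdt1, loads the MCM helicase onto origins. In S phase the Cdc7-Dbf4 kinase and Cdc45 help switch the helicase on, primase and polymerase alpha start each strand, and polymerases delta and epsilon extend it on the PCNA clamp. Ribonucleotide reductase, thymidylate synthase and thymidine kinase supply the deoxynucleotides. In the intestine, dividing cells lie in the crypts, and villus enterocytes have left the cell cycle.

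Many genes of S phase are known targets of E2F transcription factors, so the promoters of members were searched for E2F words in the RefSeq promoter windows of build GRCm38.p6 (250 bases before the start to 50 after it). The words were TTTCCCGC, TTTCGCGC, TTTGCCGC and TTTGGCGC, on both strands, where a word and its partner on the other strand may overlap. Windows were found for 38 of the 44 members, 47 windows in all. An E2F word was present in 12 of these 47 windows (25.5%), and in 2.26% of all 32851 windows of the table. The CCAAT box was present in 53.2% of the members' windows and 37.4% of all windows, and the CHR element TTTGAA in 14.9% and 17.9%, both searched on both strands. The 12 genes with an E2F word were Cdc6, Cdt1, Orc1, Mcm3, Mcm5, Mcm6, Mcm7, Pola1, Pold1, Pole2, Rfc3 and Lig1. A match describes the letters of a window and is not evidence of binding. The 170 bases before the start are shown for 6 genes, on the strand of the gene, with E2F words of either strand in capitals. Mcm6 and Mcm5 are shown for overlapping words on both strands, Cdc6, Orc1 and Pola1 as genes with 1 word whose levels are described below, and Rfc1 as the member called between both Sec-Pro groups with the largest difference, whose window holds none of these words.
Mcm6, chr1:128359706-128359875, minus strand: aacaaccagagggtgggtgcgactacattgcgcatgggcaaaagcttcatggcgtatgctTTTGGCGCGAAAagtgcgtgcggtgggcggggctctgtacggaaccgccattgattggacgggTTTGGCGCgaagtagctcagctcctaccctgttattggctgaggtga
Mcm5, chr8:75109339-75109508, plus strand: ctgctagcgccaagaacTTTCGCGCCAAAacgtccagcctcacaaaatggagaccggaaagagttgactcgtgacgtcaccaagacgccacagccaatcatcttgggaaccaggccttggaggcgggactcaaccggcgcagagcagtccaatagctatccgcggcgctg
Cdc6, chr11:98907981-98908150, plus strand: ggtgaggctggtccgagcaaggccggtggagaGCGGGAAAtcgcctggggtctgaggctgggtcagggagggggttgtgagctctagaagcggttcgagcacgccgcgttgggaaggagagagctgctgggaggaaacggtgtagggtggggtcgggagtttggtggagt
Orc1, chr4:108579284-108579453, plus strand: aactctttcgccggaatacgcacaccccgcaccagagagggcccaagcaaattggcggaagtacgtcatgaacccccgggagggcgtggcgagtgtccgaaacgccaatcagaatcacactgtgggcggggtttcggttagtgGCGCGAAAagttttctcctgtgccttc
Pola1, chrX:93632156-93632325, minus strand: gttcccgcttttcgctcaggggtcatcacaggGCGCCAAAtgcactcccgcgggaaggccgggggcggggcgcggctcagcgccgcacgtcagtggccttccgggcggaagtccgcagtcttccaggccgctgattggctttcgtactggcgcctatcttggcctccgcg
Rfc1, chr5:65335640-65335809, minus strand: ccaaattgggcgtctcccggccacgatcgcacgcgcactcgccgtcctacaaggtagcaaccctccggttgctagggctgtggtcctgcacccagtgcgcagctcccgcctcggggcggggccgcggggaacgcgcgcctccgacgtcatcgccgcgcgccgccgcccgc

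The replication genes were high in stem cells and enterocyte progenitors, intermediate in secretory progenitors and low in villus enterocytes. The median level of the 43 members was 9.82 and 9.70 on the ISC arrays, 9.93 and 9.75 on the Ent-Pro arrays, 8.63 and 9.13 on the Rbpj Sec-Pro arrays, 8.91 and 8.92 on the DBZ Sec-Pro arrays, and 8.06 and 8.05 on the ENT arrays. The 3 lower groups did not overlap with ISC and Ent-Pro, and ISC overlapped with Ent-Pro. The mean was highest in Ent-Pro for 22 members, in ISC for 19 and in DBZ Sec-Pro for Orc4 and Rfc1, while Ent-Pro was highest for 14.6% and ISC for 29.8% of all genes. ENT had the lowest mean for 40 of 43 members and for 24.3% of all genes. For 39 of 43 members the Sec-Pro mean lay between those of ENT and Ent-Pro, the exceptions being Gmnn and Pola2 below ENT and Orc4 and Rfc1 above Ent-Pro. In such bulk samples, fewer dividing cells and less RNA per dividing cell cannot be told apart.

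**Figure D1:**
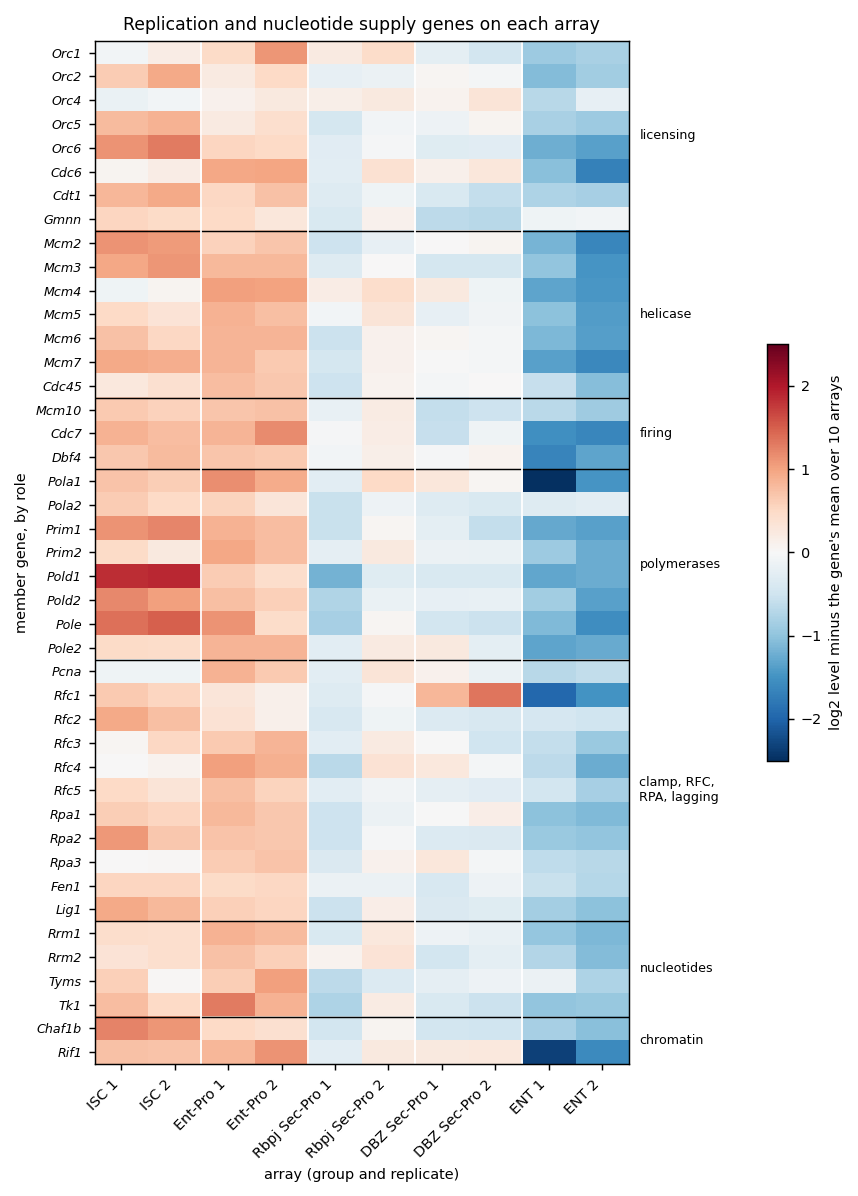
Level of each of the 43 measured members (rows, by role) on each of the 10 arrays (columns), as the log2 level minus that gene's mean over the arrays. ISC and Ent-Pro are mostly above each gene's mean, ENT is mostly lowest, and Rfc1 is highest in DBZ Sec-Pro.

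In ENT, 42 of 43 members fell against Ent-Pro and 0 rose at an adjusted p under 0.05 (limma, Benjamini-Hochberg over all genes; 0 rose and 43 fell at an unadjusted p under 0.05). Among all genes 20.2% fell and 18.5% rose. The members' median log2 difference was -1.81, beside 0.02 for all genes. Of the 42 calls, 40 were made whichever single array was left out. Leukocyte markers were higher in ENT for 5 of 10 and lower for 0, with mean levels of 7.93 and 8.16 in ENT and 6.44 and 6.36 in Ent-Pro, and tuft markers were higher for 4 of 4, with a median log2 difference of 3.74. Enterocyte markers were higher for 8 of 9. The part of these markers in the members' decline was not tested.

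In secretory progenitors, taken as the average of the Rbpj and DBZ group means, 40 of 43 members fell against Ent-Pro and 0 rose (0 rose and 41 fell at an unadjusted p under 0.05 in limma), where 14.7% of all genes fell and 9.27% rose. The median log2 difference was -0.85 for members and -0.093 for all genes. The count rests on both Ent-Pro arrays: 13 members were called lower when Ent-Pro replicate 1 was left out, and 22 when replicate 2 was. The 11 members called whichever array was left out were Orc6, Cdt1, Mcm3, Mcm4, Mcm10, Cdc7, Prim1, Rfc5, Rpa1, Rpa2 and Fen1. For 4 of these 11, a probe set other than the one used was not called in the fit over all single-gene probe sets. These were Cdc7 (-0.65, adjusted p = 0.12), Fen1 (-0.33, 0.16), Mcm3 (-0.34, 0.13) and the dim one of Cdt1 (0.12, 0.44). Leukocyte markers were higher in Sec-Pro than in Ent-Pro for 6 of 10, at mean levels of 7.03 to 8.92, and tuft markers for 3 of 4, with a median log2 difference of 2.57. All measured goblet (6), Paneth (4) and enteroendocrine (6) markers were also higher in Sec-Pro, with median log2 differences of 7.19, 4.61 and 4.84. The part of these markers in the members' decline was not tested. Taken alone, Rbpj Sec-Pro had 38 members lower than Ent-Pro and DBZ Sec-Pro 34, a split chosen after the data had been seen. The shares of all genes given above belong to the average of both groups and not to either group alone.

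Sec-Pro lay above ENT. Against ENT, 38 members were higher and 0 lower (39 and 0 at an unadjusted p under 0.05 in limma), where 20% of all genes were higher and 25.6% lower, and the median log2 difference was 0.86. Gmnn, Pola2, Rfc2, Tyms and Tk1 did not pass. Without ENT replicate 2 the count was 25. For Mcm3 the probe set used was 0.93 higher in Sec-Pro (adjusted p = 0.0015) and another of its 5 probe sets 0.51 lower (adjusted p = 0.02; both in the fit over all single-gene probe sets), so its direction here depends on the probe set. All measured goblet, Paneth and enteroendocrine markers were higher in Sec-Pro, 6 of 9 enterocyte markers and 1 of 4 tuft markers were lower, and 0 of 10 leukocyte markers were called. Their part was not tested.

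**Figure D2:**
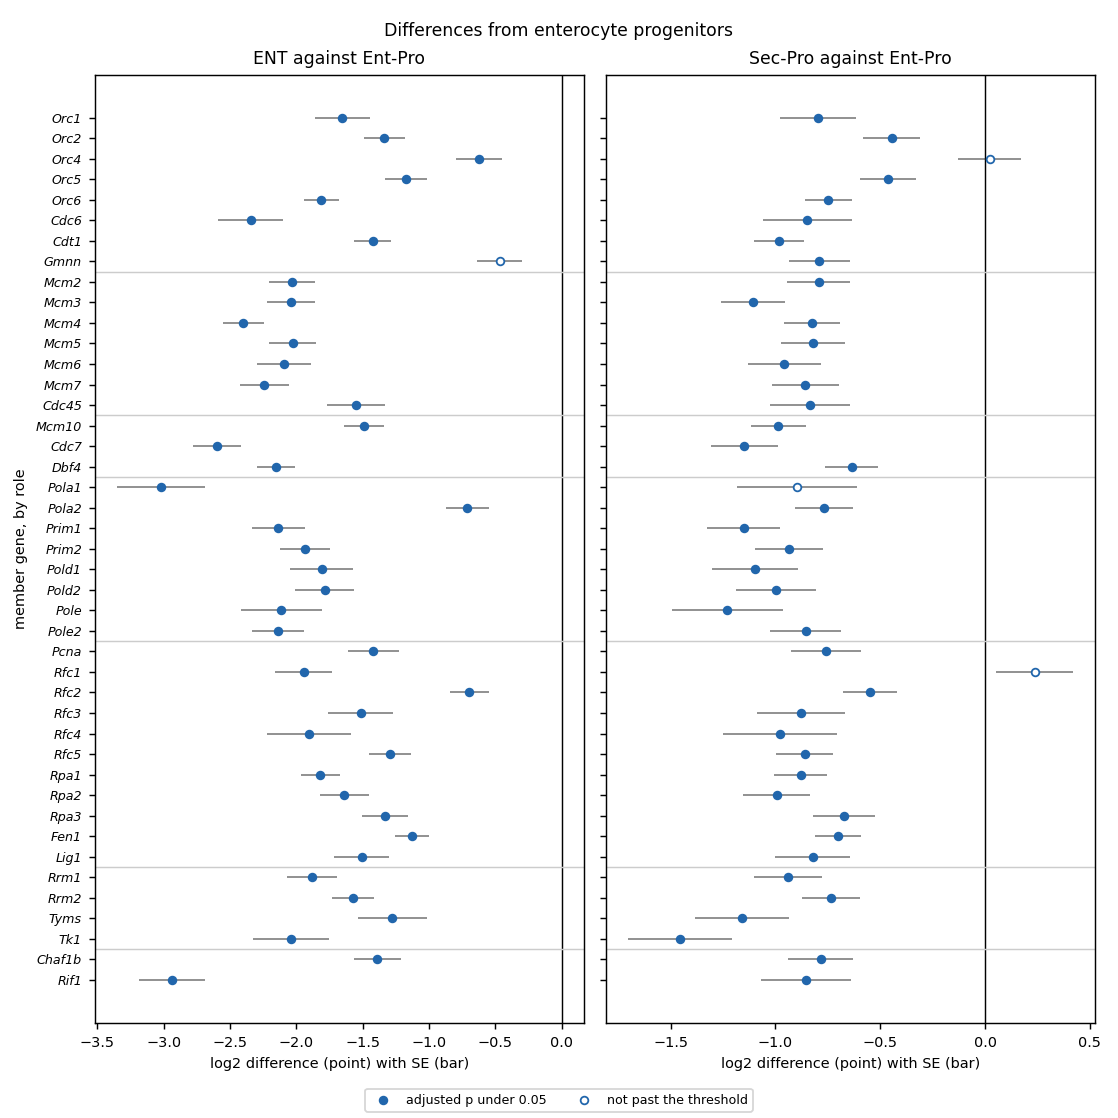
Log2 difference from Ent-Pro of each member in ENT (left) and in Sec-Pro (right), with its SE from the limma fit; filled points passed an adjusted p of 0.05. In ENT all points lie below 0 and only Gmnn is open, and in Sec-Pro all lie below 0 except Orc4 and Rfc1, while Pola1 is also open.

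Among licensing factors, Cdc6 loads the helicase together with Cdt1. The Cdc6 level was 7.66 and 7.77 in ISC, 8.55 and 8.57 in Ent-Pro, 7.32 and 7.97 in Rbpj Sec-Pro, 7.71 and 7.86 in DBZ Sec-Pro, and 6.53 and 5.90 in ENT. Both Ent-Pro arrays were above all others and both ENT arrays below all others, while ISC and Sec-Pro overlapped. The log2 difference was -2.35 ± 0.24 (SE, adjusted p = 0.00015) in ENT and -0.85 ± 0.21 (SE, adjusted p = 0.022) in Sec-Pro against Ent-Pro. Its call in Sec-Pro was lost without either Ent-Pro array (adjusted p = 0.12 in both cases) and without DBZ Sec-Pro replicate 1 (adjusted p = 0.055). The Cdt1 level was 11.83 and 11.93 in ISC, 11.51 and 11.72 in Ent-Pro, 10.66 and 10.87 in Rbpj Sec-Pro, 10.60 and 10.39 in DBZ Sec-Pro, and 10.23 and 10.15 in ENT. With the probe set used, ISC, Ent-Pro, Sec-Pro and ENT followed in that order with no overlap, and the Sec-Pro difference from Ent-Pro was -0.98 ± 0.12 (SE, adjusted p = 0.00094). A second probe set of Cdt1 read 9.69 and 9.615 in ISC, below 10.03 and 9.88 in Ent-Pro. Its Sec-Pro difference from Ent-Pro was -1.24 (adjusted p = 0.001 in the fit over all single-gene probe sets).

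Orc6, a subunit of the origin recognition complex, measured 9.52 and 9.69 in ISC, 8.94 and 8.90 in Ent-Pro, 8.12 and 8.37 in Rbpj Sec-Pro, 8.10 and 8.12 in DBZ Sec-Pro, and 7.18 and 7.04 in ENT. It fell in steps from ISC to Ent-Pro (-0.69 ± 0.13 (SE, adjusted p = 0.0054)), from Ent-Pro to Sec-Pro (-0.75 ± 0.11 (SE, adjusted p = 0.0028)) and from Ent-Pro to ENT (-1.81 ± 0.13 (SE, adjusted p = 4.9e-05)), with no overlap between these groups. Orc1, an ATP-binding subunit of the complex, measured 6.37 and 6.63 in ISC, 6.92 and 7.55 in Ent-Pro, 6.67 and 6.91 in Rbpj Sec-Pro, 6.21 and 5.98 in DBZ Sec-Pro, and 5.54 and 5.62 in ENT. Both Ent-Pro arrays lay above all others, and it fell against Ent-Pro in ENT (-1.65 ± 0.21 (SE, adjusted p = 0.00037)) and in Sec-Pro (-0.80 ± 0.18 (SE, adjusted p = 0.015)). Without Ent-Pro replicate 2 the Sec-Pro difference was -0.48 (adjusted p = 0.14).

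Orc4, another subunit of the complex, measured 8.32 and 8.41 in ISC, 8.58 and 8.73 in Ent-Pro, 8.63 and 8.72 in Rbpj Sec-Pro, 8.56 and 8.80 in DBZ Sec-Pro, and 7.78 and 8.28 in ENT. Its ENT arrays were the lowest, the other 8 arrays lay between 8.32 and 8.80, and Sec-Pro differed from Ent-Pro by 0.023 ± 0.15 (SE, adjusted p = 0.93). The decline of Orc4 in ENT, -0.62 ± 0.17 (SE, adjusted p = 0.019), was not called without Ent-Pro replicate 1 (0.052), Ent-Pro replicate 2 (0.12) or ENT replicate 1 (0.13). Orc2 and Orc5 fell by 1.34 and 1.17 in ENT and by 0.45 and 0.46 in Sec-Pro against Ent-Pro; both Sec-Pro calls were lost in most fits that left out 1 array, among them without Ent-Pro replicate 2 (0.30 and 0.25). Over the 5 measured subunits of the complex, the ENT difference ranged from -1.81 to -0.62.

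Gmnn encodes geminin, which binds Cdt1 and blocks licensing outside G1. Its level was 10.77 and 10.72 in ISC, 10.72 and 10.52 in Ent-Pro, 9.85 and 10.35 in Rbpj Sec-Pro, 9.58 and 9.54 in DBZ Sec-Pro, and 10.13 and 10.17 in ENT. DBZ Sec-Pro was lowest, and ENT lay within the range of Rbpj Sec-Pro. Gmnn was the 1 member not called lower in ENT than in Ent-Pro (-0.47 ± 0.17 (SE, adjusted p = 0.053); 0.012 without either Rbpj Sec-Pro array), and it fell in Sec-Pro against Ent-Pro (-0.79 ± 0.14 (SE, adjusted p = 0.0063)), a call lost without Ent-Pro replicate 1 (adjusted p = 0.076).

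**Figure D3:**
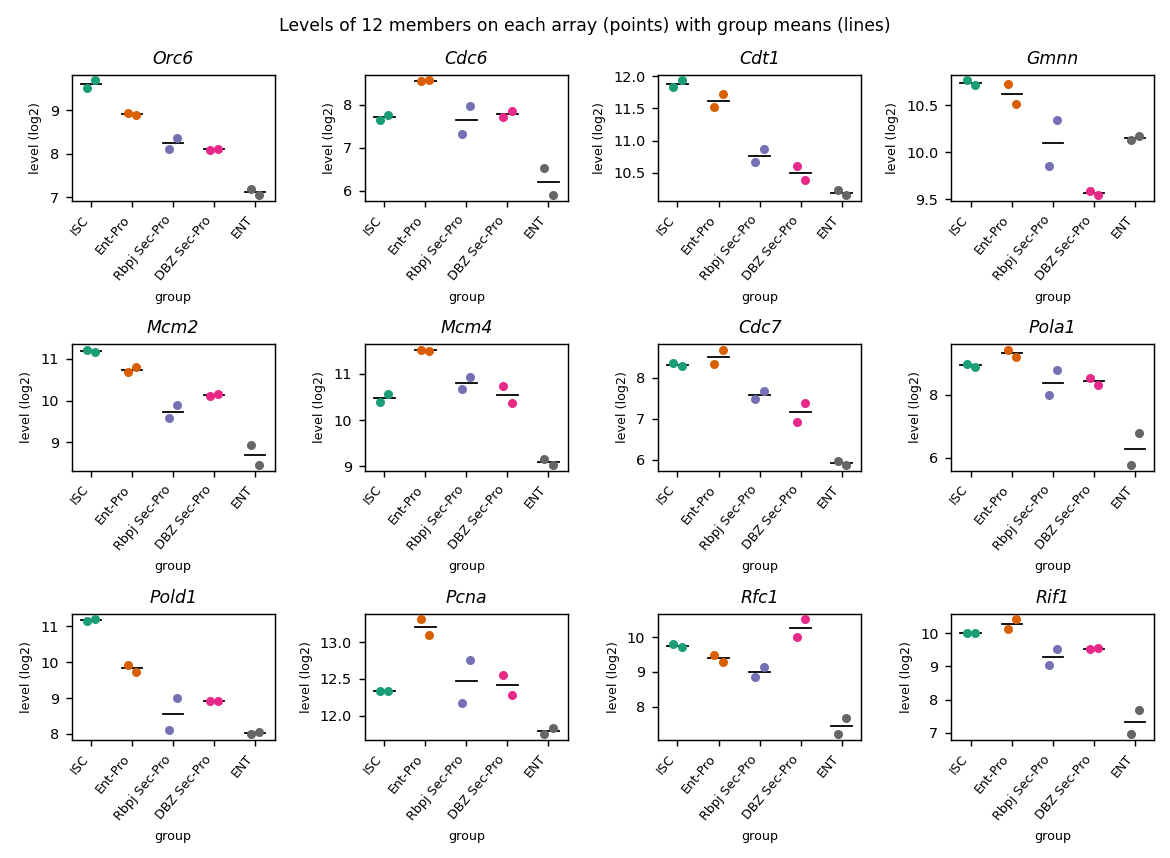
Level (log2) of 12 members on every array (points, 2 per group) with the group mean (line). ENT is lowest in all panels except Gmnn, Ent-Pro is above every other array for Cdc6, Mcm4, Pola1, Pcna and Rif1, and DBZ Sec-Pro is above every other array for Rfc1.

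The MCM helicase is a ring of 6 subunits, Mcm2 to Mcm7, that unwinds DNA ahead of the polymerases. All 6 genes fell in ENT against Ent-Pro, within a narrow range of -2.40 to -2.03, and all 6 fell in Sec-Pro, from -1.11 to -0.79. The Mcm2 level was 11.21 and 11.16 in ISC, 10.68 and 10.79 in Ent-Pro, 9.57 and 9.90 in Rbpj Sec-Pro, 10.12 and 10.17 in DBZ Sec-Pro, and 8.94 and 8.46 in ENT, and that of Mcm3 was 10.33 and 10.46 in ISC, 10.17 and 10.17 in Ent-Pro, 9.04 and 9.38 in Rbpj Sec-Pro, 8.93 and 8.92 in DBZ Sec-Pro, and 8.37 and 7.89 in ENT. For both genes ISC was highest, followed without overlap by Ent-Pro, Sec-Pro and ENT. Mcm2 differed from Ent-Pro by -2.03 ± 0.17 (SE, adjusted p = 7.1e-05) in ENT and by -0.79 ± 0.15 (SE, adjusted p = 0.0079) in Sec-Pro, and Mcm3 by -2.04 ± 0.18 (SE, adjusted p = 7.2e-05) and -1.11 ± 0.15 (SE, adjusted p = 0.0018).

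Mcm4 and Mcm5 had another order at the top. The Mcm4 level was 10.38 and 10.55 in ISC, 11.51 and 11.49 in Ent-Pro, 10.68 and 10.92 in Rbpj Sec-Pro, 10.73 and 10.37 in DBZ Sec-Pro, and 9.17 and 9.04 in ENT. Ent-Pro was above every other array, and ISC lay within the range of DBZ Sec-Pro. Mcm4 fell by 2.40 in ENT (adjusted p = 4.2e-05), a 5.28-fold difference, and by 0.83 in Sec-Pro (adjusted p = 0.004). The Mcm5 level was 9.07 and 8.91 in ISC, 9.45 and 9.32 in Ent-Pro, 8.50 and 8.90 in Rbpj Sec-Pro, 8.37 and 8.48 in DBZ Sec-Pro, and 7.54 and 7.17 in ENT. All ISC arrays lay between Ent-Pro and Sec-Pro, and Mcm5 differed from Ent-Pro by -2.03 ± 0.18 (SE, adjusted p = 7.1e-05) in ENT and -0.82 ± 0.15 (SE, adjusted p = 0.0068) in Sec-Pro. Mcm6 and Mcm7 fell by 2.09 and 2.24 in ENT and by 0.96 and 0.86 in Sec-Pro. Of the 6 Sec-Pro calls, those of Mcm3 and Mcm4 held whichever array was left out; Mcm2, Mcm5, Mcm6 and Mcm7 were lost without Ent-Pro replicate 1 (adjusted p of 0.051, 0.073, 0.055 and 0.079), and Mcm2 and Mcm6 also without replicate 2 (0.076 and 0.055).

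Cdc45 joins MCM and GINS in the active helicase. Its level was 8.04 and 8.18 in ISC, 8.55 and 8.45 in Ent-Pro, 7.26 and 7.87 in Rbpj Sec-Pro, 7.74 and 7.80 in DBZ Sec-Pro, and 7.20 and 6.71 in ENT. Ent-Pro was highest and ENT lowest, with Sec-Pro between ENT and ISC and no overlap. Cdc45 fell in ENT (-1.55 ± 0.22 (SE, adjusted p = 0.00061)) and in Sec-Pro (-0.83 ± 0.19 (SE, adjusted p = 0.015)), the latter not without Ent-Pro replicate 1 (0.11) or 2 (0.082).

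The kinase subunit Cdc7 and its activator Dbf4 phosphorylate MCM to fire origins. The Cdc7 level was 8.36 and 8.28 in ISC, 8.35 and 8.69 in Ent-Pro, 7.48 and 7.69 in Rbpj Sec-Pro, 6.92 and 7.40 in DBZ Sec-Pro, and 5.97 and 5.87 in ENT. ISC and Ent-Pro overlapped and were above Sec-Pro, which was above ENT. Cdc7 had the third-largest decline of any member in ENT, -2.60 ± 0.18 (SE, adjusted p = 4.8e-05), a 6.05-fold difference, and fell in Sec-Pro by 1.15 (adjusted p = 0.0018). A second, dimmer probe set of Cdc7 gave smaller differences in the fit over all single-gene probe sets. Against Ent-Pro it read -0.54 (adjusted p = 0.22) in ENT and -0.65 (adjusted p = 0.12) in Sec-Pro. In Sec-Pro against ENT it read -0.10 (adjusted p = 0.78), where the probe set used gave 1.45. The rank, fold and group order of Cdc7 therefore hold for the probe set used. Dbf4 fell by 2.15 in ENT (adjusted p = 4.4e-05) and by 0.64 in Sec-Pro (adjusted p = 0.0089; 0.082 without Ent-Pro replicate 1 and 0.065 without replicate 2). Mcm10, which links the helicase to polymerase alpha, measured 9.04 and 8.95 in ISC, 9.08 and 9.11 in Ent-Pro, 8.19 and 8.58 in Rbpj Sec-Pro, 7.79 and 7.86 in DBZ Sec-Pro, and 7.71 and 7.49 in ENT. Its DBZ Sec-Pro arrays lay just above ENT and below Rbpj Sec-Pro, and it fell in ENT by 1.49 (adjusted p = 0.00013) and in Sec-Pro by 0.99 (adjusted p = 0.0015).

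Pola1, the catalytic subunit of polymerase alpha, had the largest decline of the list in ENT. Its level was 8.98 and 8.89 in ISC, 9.42 and 9.19 in Ent-Pro, 7.99 and 8.77 in Rbpj Sec-Pro, 8.54 and 8.32 in DBZ Sec-Pro, and 5.78 and 6.79 in ENT. Both ENT arrays were far below all others, though 1.01 apart, and the Sec-Pro arrays lay below ISC. The log2 difference from Ent-Pro was -3.02 ± 0.33 (SE, adjusted p = 0.00019) in ENT, 8.12-fold, and -0.90 ± 0.29 (SE, adjusted p = 0.051) in Sec-Pro, which missed the threshold. Pola2, the accessory subunit, fell by only 0.71 in ENT (adjusted p = 0.0072; 0.063 without Ent-Pro replicate 1), and by 0.77 in Sec-Pro (adjusted p = 0.0062; 0.078 without Ent-Pro replicate 1). With the mean of its probe sets the ENT difference of Pola2 was -0.33 (adjusted p = 0.091), since the second, dimmer probe set read 0.051 there.

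Prim1, the catalytic subunit of primase, measured 10.95 and 11.06 in ISC, 10.71 and 10.60 in Ent-Pro, 9.28 and 9.89 in Rbpj Sec-Pro, 9.59 and 9.24 in DBZ Sec-Pro, and 8.55 and 8.48 in ENT. It followed the order ISC, Ent-Pro, Sec-Pro and ENT with no overlap, and differed from Ent-Pro by -2.13 ± 0.20 (SE, adjusted p = 9.7e-05) in ENT and -1.15 ± 0.17 (SE, adjusted p = 0.0027) in Sec-Pro. Prim2, its partner, fell by 1.94 in ENT and 0.94 in Sec-Pro, the latter not without Ent-Pro replicate 1 (adjusted p = 0.062).

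Pold1, the catalytic subunit of polymerase delta, measured 11.13 and 11.19 in ISC, 9.93 and 9.74 in Ent-Pro, 8.11 and 8.99 in Rbpj Sec-Pro, 8.91 and 8.92 in DBZ Sec-Pro, and 7.99 and 8.05 in ENT. ISC was above all others by more than 1, Ent-Pro came next, and Rbpj Sec-Pro replicate 1 was close to ENT. Pold1 had the largest decline in Sec-Pro against ISC, -2.43 ± 0.21 (SE, adjusted p = 4.6e-05), 5.38-fold, and fell against Ent-Pro in ENT by 1.81 (adjusted p = 0.00044). Pole, the catalytic subunit of polymerase epsilon, measured 9.21 and 9.33 in ISC, 8.96 and 8.30 in Ent-Pro, 7.01 and 7.90 in Rbpj Sec-Pro, 7.38 and 7.31 in DBZ Sec-Pro, and 6.74 and 6.29 in ENT. Its Ent-Pro arrays were 0.66 apart, and ISC was above them. Pole fell in Sec-Pro against Ent-Pro (-1.23 ± 0.27 (SE, adjusted p = 0.012)) and ISC (-1.87 ± 0.27 (SE, adjusted p = 0.00054)), the first of these not without Ent-Pro replicate 1 (-0.90, adjusted p = 0.12). Pold2 and Pole2, accessory subunits, fell by 1.79 and 2.14 in ENT and by 1.00 and 0.85 in Sec-Pro; the Sec-Pro calls were lost without Ent-Pro replicate 1 (0.078 and 0.071), and that of Pole2 also without replicate 2 (0.071).

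Pcna encodes the sliding clamp. Its level was 12.33 and 12.34 in ISC, 13.31 and 13.10 in Ent-Pro, 12.18 and 12.76 in Rbpj Sec-Pro, 12.55 and 12.29 in DBZ Sec-Pro, and 11.74 and 11.83 in ENT. Ent-Pro was above every other array, ENT below every other, and ISC lay within the range of both Sec-Pro groups. Pcna differed from Ent-Pro by -1.42 ± 0.19 (SE, adjusted p = 0.00051) in ENT and by -0.76 ± 0.17 (SE, adjusted p = 0.013) in Sec-Pro, the latter not without Ent-Pro replicate 1 (0.12) or 2 (0.059).

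Rfc1, the large subunit of the clamp loader, measured 9.81 and 9.70 in ISC, 9.48 and 9.29 in Ent-Pro, 8.85 and 9.13 in Rbpj Sec-Pro, 10.002 and 10.51 in DBZ Sec-Pro, and 7.21 and 7.67 in ENT. DBZ Sec-Pro was above every other array and ENT below every other. Rfc1 was 4.54-fold higher in Sec-Pro than in ENT (2.18 ± 0.18 (SE, adjusted p = 5.3e-05)), the largest such difference of the list, while Sec-Pro and Ent-Pro differed by 0.24 ± 0.18 (SE, adjusted p = 0.38). With DBZ Sec-Pro taken alone, Rfc1 was higher than in Ent-Pro (0.87, adjusted p = 0.022). Rfc2 to Rfc5, the small subunits, fell by 0.70, 1.51, 1.91 and 1.29 in ENT and by 0.55, 0.88, 0.98 and 0.86 in Sec-Pro; without Ent-Pro replicate 1 the Sec-Pro calls of Rfc2, Rfc3 and Rfc4 were lost (0.16, 0.086 and 0.18), as they were without replicate 2 (0.055, 0.14 and 0.13), and Rfc4 was also lost without either ISC array (0.055) or either DBZ Sec-Pro array (0.051 and 0.083).

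The RPA subunits coat single-stranded DNA. The Rpa1 level was 11.37 and 11.31 in ISC, 11.58 and 11.45 in Ent-Pro, 10.25 and 10.61 in Rbpj Sec-Pro, 10.75 and 10.93 in DBZ Sec-Pro, and 9.73 and 9.65 in ENT, and the Rpa3 level was 9.88 and 9.90 in ISC, 10.51 and 10.59 in Ent-Pro, 9.52 and 9.98 in Rbpj Sec-Pro, 10.16 and 9.83 in DBZ Sec-Pro, and 9.25 and 9.18 in ENT. With the probe set used, Rpa1 followed the order Ent-Pro, ISC, DBZ Sec-Pro, Rbpj Sec-Pro and ENT with no overlap. A second probe set of Rpa1 read 9.95 and 9.65 in ISC, below DBZ Sec-Pro (10.08 and 10.06) and overlapping with Rbpj Sec-Pro (9.42 and 9.80). In Sec-Pro against ISC it gave 0.038 (adjusted p = 0.85 in the fit over all single-gene probe sets), where the probe set used gave -0.71. For Rpa3, ISC lay within the Sec-Pro range and Ent-Pro above it. Rpa1, Rpa2 and Rpa3 fell by 1.82, 1.64 and 1.33 in ENT and by 0.88, 0.99 and 0.67 in Sec-Pro, the last not without Ent-Pro replicate 1 (0.083) or 2 (0.11). Fen1, which trims the flaps of lagging-strand fragments, and Lig1, the ligase that joins them, fell by 1.13 and 1.51 in ENT and by 0.70 and 0.82 in Sec-Pro. A second probe set of Fen1 gave -1.78 (adjusted p = 0.00013) in ENT and -0.33 (adjusted p = 0.16) in Sec-Pro, in the fit over all single-gene probe sets. Lig1 was not called in Sec-Pro without Ent-Pro replicate 1 (0.10) or 2 (0.080).

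Ribonucleotide reductase makes deoxynucleotides from ribonucleotides, with Rrm1 as the large and Rrm2 as the small subunit. The Rrm1 level was 10.40 and 10.38 in ISC, 10.83 and 10.76 in Ent-Pro, 9.59 and 10.22 in Rbpj Sec-Pro, 9.83 and 9.77 in DBZ Sec-Pro, and 8.99 and 8.84 in ENT, and the Rrm2 level was 10.15 and 10.21 in ISC, 10.54 and 10.39 in Ent-Pro, 9.90 and 10.14 in Rbpj Sec-Pro, 9.33 and 9.57 in DBZ Sec-Pro, and 9.07 and 8.72 in ENT. Ent-Pro was highest and ENT lowest for both genes, and Rbpj Sec-Pro overlapped with DBZ Sec-Pro for Rrm1 only. Against Ent-Pro, Rrm1 fell by 1.88 in ENT (adjusted p = 0.00013) and 0.94 in Sec-Pro (adjusted p = 0.0051), and Rrm2 by 1.57 (adjusted p = 0.00013) and 0.73 (adjusted p = 0.0075). Without Ent-Pro replicate 1 both Sec-Pro calls were lost (0.054 and 0.082).

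The probe sets of these genes did not agree on the stem cells. For Rrm1 a second probe set read 7.45 and 7.10 in ISC and 9.33 and 9.54 in Ent-Pro, a difference of 2.16 (adjusted p = 0.00035 in the fit over all single-gene probe sets), where the probe set used gave 0.40. In Sec-Pro against ISC the probe set used gave -0.54 and the second 1.49, both past the threshold, and for Rrm2 -0.45 and 0.95. Orc2 likewise had a second probe set at 0.64 in Sec-Pro against ISC where the first gave -0.88. Both probe sets of Rrm1 and all 3 of Rrm2 were lower in ENT than in Ent-Pro, by 1.52 to 1.88. The direction of Rrm1, Rrm2 and Orc2 between Sec-Pro and ISC therefore depends on the probe set.

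**Figure D4:**
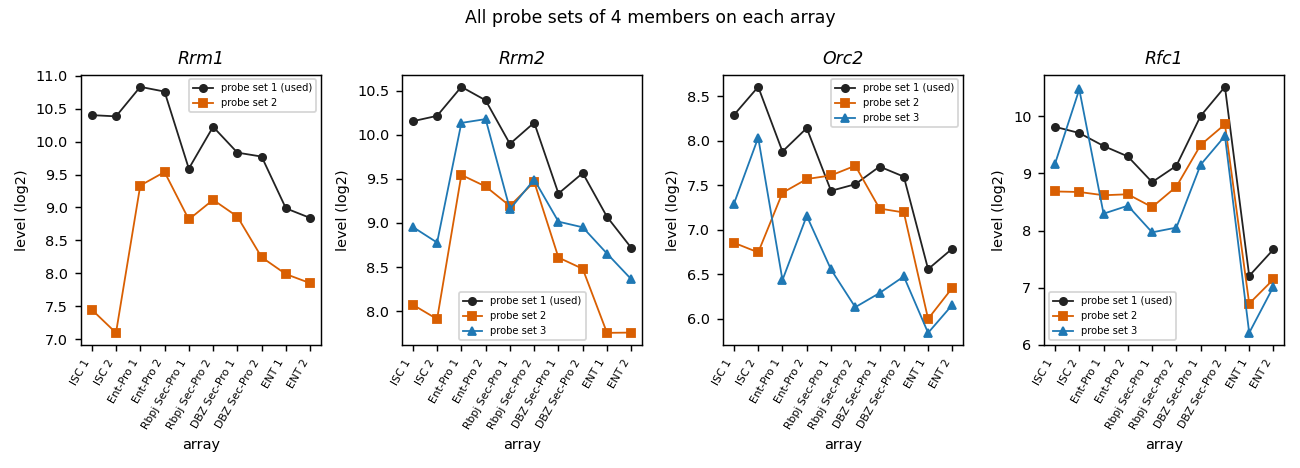
Level (log2) of every single-gene probe set of Rrm1, Rrm2, Orc2 and Rfc1 on each array (x axis); the black line is the probe set used. For Rrm1 and Rrm2 the other probe sets are low in ISC where the black line is not, and all 3 of Rfc1 are higher in DBZ than in Rbpj Sec-Pro.

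Tyms, thymidylate synthase, was near background, within 1 of the absent controls on both arrays, in 3 groups, and on 1 of 2 arrays in ISC. Its level was 4.97 and 4.42 in ISC, 5.00 and 5.40 in Ent-Pro, 3.73 and 4.05 in Rbpj Sec-Pro, 4.15 and 4.25 in DBZ Sec-Pro, and 4.24 and 3.61 in ENT. ENT, Rbpj Sec-Pro and DBZ Sec-Pro are bounds only. Against those bounds, Ent-Pro was at least 1.33-fold above Sec-Pro and at least 1.12-fold above ENT, and these bounded differences were not tested. The limma calls rest on the measured means near background, -1.16 in Sec-Pro (adjusted p = 0.0082) and -1.28 in ENT (adjusted p = 0.0041) against Ent-Pro. The call in Sec-Pro was lost without Ent-Pro replicate 2 (-0.96). No fold is given against ISC, whose mean of 4.70 lies below the bounds of Sec-Pro (4.80) and ENT (5.04). Tk1, the cytosolic thymidine kinase, measured 9.82 and 9.53 in ISC, 10.34 and 9.90 in Ent-Pro, 8.27 and 9.24 in Rbpj Sec-Pro, 8.65 and 8.50 in DBZ Sec-Pro, and 8.06 and 8.10 in ENT. Ent-Pro was highest, ISC next, and Rbpj Sec-Pro replicate 1 lay below both DBZ Sec-Pro arrays while replicate 2 lay above them. Tk1 had the largest decline in Sec-Pro against Ent-Pro, -1.46 ± 0.25 (SE, adjusted p = 0.0046), 2.74-fold (adjusted p = 0.059 without Ent-Pro replicate 1), and fell by 2.04 in ENT (adjusted p = 0.00059).

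Chaf1b, a subunit of the chromatin assembly factor that places histones behind the fork, measured 8.97 and 8.83 in ISC, 8.23 and 8.12 in Ent-Pro, 7.26 and 7.80 in Rbpj Sec-Pro, 7.27 and 7.23 in DBZ Sec-Pro, and 6.89 and 6.68 in ENT. It followed the order ISC, Ent-Pro, Sec-Pro and ENT with no overlap, and fell in Sec-Pro against ISC (-1.51 ± 0.15 (SE, adjusted p = 0.0001)) and Ent-Pro (-0.78 ± 0.15 (SE, adjusted p = 0.0089)), the latter not without Ent-Pro replicate 1 (0.084) or 2 (0.056). Rif1, which sets the timing of origin firing, measured 10.02 and 9.996 in ISC, 10.12 and 10.42 in Ent-Pro, 9.03 and 9.54 in Rbpj Sec-Pro, 9.53 and 9.54 in DBZ Sec-Pro, and 6.96 and 7.70 in ENT. Both ENT arrays were far below all others, and ISC lay between Ent-Pro and Sec-Pro. Rif1 fell in ENT by 2.94 (adjusted p = 6.7e-05), 7.67-fold, and in Sec-Pro by 0.86 (adjusted p = 0.023), which was lost without either Ent-Pro array (0.078 and 0.17) or either DBZ Sec-Pro array (0.051 and 0.053). Rif1 was 4.24-fold higher in Sec-Pro than in ENT (2.08 ± 0.21 (SE, adjusted p = 0.00015)), and Pola1 4.35-fold (2.12 ± 0.29 (SE, adjusted p = 0.00051)).

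Between stem cells and enterocyte progenitors, some members rose and others fell. Against ISC, 5 members rose and 5 fell in Ent-Pro, 11.6% in each direction, near the shares of all genes (12.1% rose and 13.5% fell). Those that rose were Mcm4 (1.03 ± 0.16 (SE, adjusted p = 0.0019)), Pcna (0.87 ± 0.19 (SE, adjusted p = 0.011)), Cdc6 (0.85 ± 0.24 (SE, adjusted p = 0.033)), Orc1 (0.73 ± 0.21 (SE, adjusted p = 0.032)) and Rpa3 (0.66 ± 0.17 (SE, adjusted p = 0.022)). Those that fell were Pold1 (-1.33 ± 0.24 (SE, adjusted p = 0.0041)), Chaf1b (-0.73 ± 0.18 (SE, adjusted p = 0.017)), Orc6 (-0.69 ± 0.13 (SE, adjusted p = 0.0054)), Rfc2 (-0.61 ± 0.15 (SE, adjusted p = 0.016)) and Orc5 (-0.51 ± 0.16 (SE, adjusted p = 0.04)). Orc1 rose while Orc5 and Orc6, of the same complex, fell. In the fit over all single-gene probe sets, the calls depended in part on the probe set. Probe sets not used were called higher for Rrm1 (2.16), Rrm2 (1.49 and 1.29), Rpa2 (1.11), Rpa1 (0.95) and Orc2 (0.69). Others were called lower for Prim1 (-1.21) and Rfc1 (-1.45). None of these genes was called with the probe set used, which read lower for Rpa2 (-0.19) and Orc2 (-0.44). The call of Orc5 was lost with arrays centred on their medians (adjusted p = 0.088) and under cyclic loess (0.07), and that of Orc1 with only the groups compared (0.061). Among the 6 MCM subunits only Mcm4 was called, and the difference of Mcm2 was -0.45 (adjusted p = 0.096). A second probe set of Mcm4 gave 0.49 (adjusted p = 0.13 in the fit over all single-gene probe sets) and was not called. That of Pold1 gave -1.10 (adjusted p = 0.0015 in the same fit) and was called. Of the 10, Orc6, Mcm4 and Pold1 were called whichever array was left out. Higher calls numbered 1 without either ISC array, 2 without either Ent-Pro array and 8 without either Rbpj Sec-Pro array, and lower calls 2 without ISC replicate 1 or Ent-Pro replicate 2 and 3 without ISC replicate 2 or Ent-Pro replicate 1. Beside these differences, 6 of 6 goblet, 6 of 6 enteroendocrine and 3 of 4 Paneth markers were lower in Ent-Pro than in ISC, with median log2 differences of -4.97, -3.00 and -2.76, and 9 of 9 enterocyte markers were higher (median 2.83). Their part was not tested.

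Secretory progenitors had less of most members than stem cells. Against ISC, 31 members fell and 0 rose in Sec-Pro (33 and 0 at an unadjusted p under 0.05 in limma), where 27.2% of all genes fell and 18% rose, and the median log2 difference was -0.73. Among the 31 is Tyms (adjusted p = 0.04), for which the bound set by background allows no decline to be stated. Of 36 other probe sets of members, 10 had the opposite sign to the probe set used. For Orc2, Rrm1 and Rrm2, also among the 31, a probe set not used was called higher, so their direction depends on the probe set. Second probe sets of Rpa1 (0.038) and Rpa2 (0.24) were not called in the fit over all single-gene probe sets. The largest declines were those of Pold1, Pole and Chaf1b. The 12 members not called included Cdc6 (0.001 ± 0.21 (SE, adjusted p = 1)), Pcna (0.11 ± 0.17 (SE, adjusted p = 0.62)), Mcm4 (0.21 ± 0.14 (SE, adjusted p = 0.24)), Rpa3 (-0.018 ± 0.15 (SE, adjusted p = 0.93)) and Orc1 (-0.062 ± 0.18 (SE, adjusted p = 0.81)). The count ranged from 22 to 33 when 1 array was left out, lowest without ISC replicate 1. Leukocyte markers were higher in Sec-Pro for 8 of 10 and at 5.38 and 5.65 on average in ISC, with Ptprc and Cd3g near background there. Goblet markers were higher in Sec-Pro for 6 of 6, enteroendocrine for 5 of 6, enterocyte for 9 of 9 and tuft for 3 of 4, and the part of these markers was not tested.

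**Figure D5:**
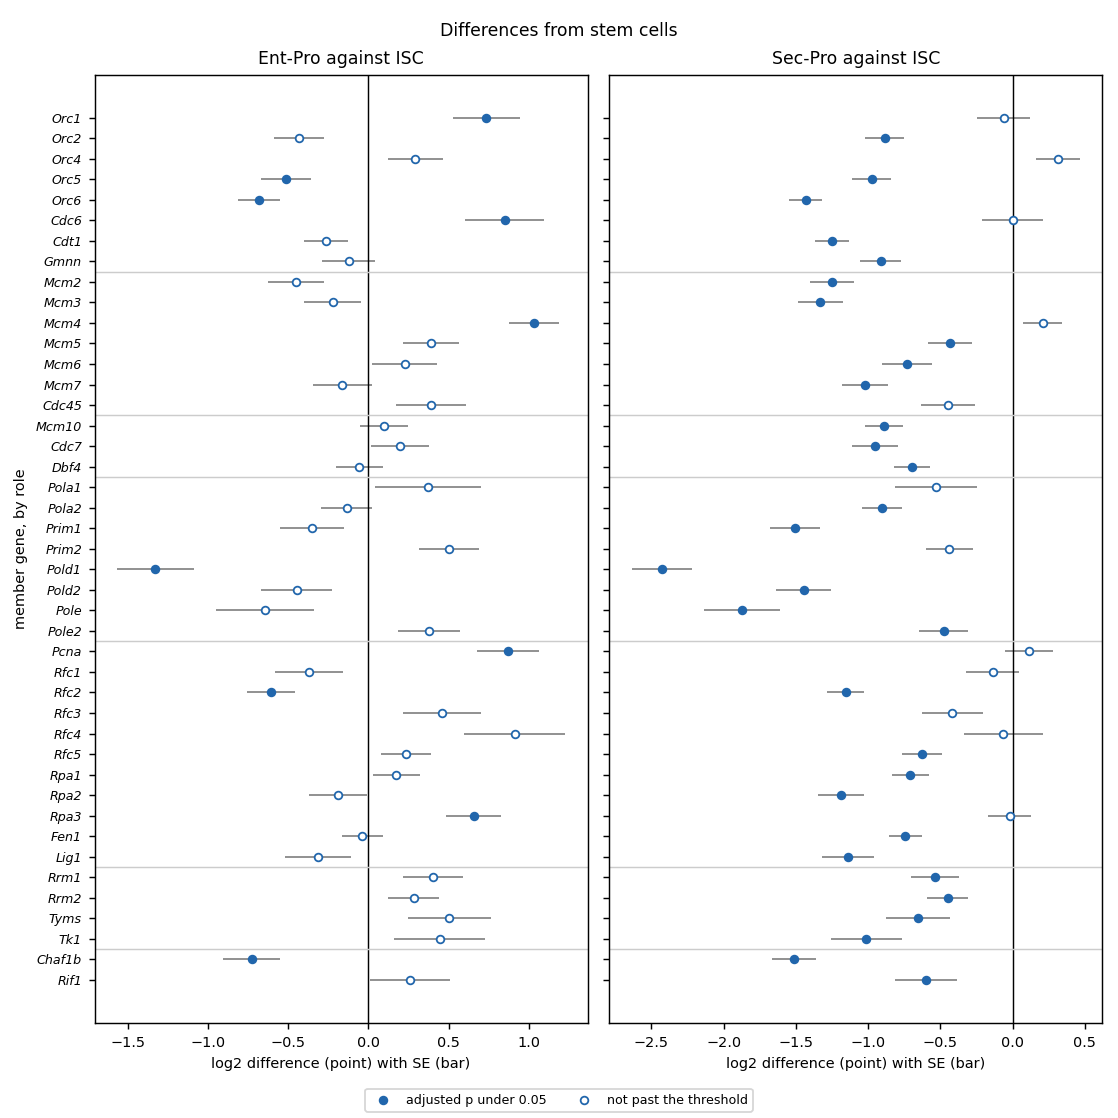
Log2 difference from ISC of each member in Ent-Pro (left) and in Sec-Pro (right), with its SE from the limma fit; filled points passed an adjusted p of 0.05. In Ent-Pro the points lie on both sides of 0, and in Sec-Pro 39 of 43 lie below 0.

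Few members differed by the test between both ways of enriching secretory progenitors. Against Rbpj Sec-Pro, 1 member was higher and 2 lower in DBZ Sec-Pro, where 9.34% of all genes were higher and 7.08% lower. Rfc1 was higher (1.27 ± 0.21 (SE, adjusted p = 0.0083)), and all 3 of its probe sets were higher, by 1.09 to 1.39. Rrm2 (-0.57 ± 0.16 (SE, adjusted p = 0.044)) and Mcm10 (-0.56 ± 0.15 (SE, adjusted p = 0.04)) were lower. None of these 3 calls held whichever array was left out. Rfc1 was lost without DBZ Sec-Pro replicate 2 (1.01, adjusted p = 0.060), and both others without any one of the ISC, Ent-Pro or DBZ Sec-Pro arrays (0.059 to 0.18) or without Rbpj Sec-Pro replicate 2 (0.12 for each), Rrm2 also without Rbpj Sec-Pro replicate 1 (0.061). Gmnn was called lower without Rbpj Sec-Pro replicate 1 (-0.79, adjusted p = 0.020) and Orc1 without either Ent-Pro array (-0.69, adjusted p = 0.035). Without Rbpj Sec-Pro replicate 2 the count of higher members was 4, with Pold1 (0.80), Rfc4 (0.80) and Rpa1 (0.59) added.

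Other genes of replication and of the cell cycle were counted in lists of the same kind. Among all genes, 20.2% fell and 18.5% rose in ENT against Ent-Pro, and 14.7% fell and 9.27% rose in Sec-Pro. Of 26 other replisome genes, 21 fell and 1 rose in ENT against Ent-Pro, and 17 fell and 0 rose in Sec-Pro. Top2a, which untangles DNA, fell most in ENT (-2.74 ± 0.32 (SE, adjusted p = 0.00026)), followed by Dtl (-2.67 ± 0.34 (SE, adjusted p = 0.00036)), which targets Cdt1 for destruction. Of 23 other enzymes of nucleotide synthesis, 21 fell and 0 rose in ENT, and 14 fell and 1 (Cmpk1, 0.63 ± 0.15 SE, adjusted p = 0.02) rose in Sec-Pro. The declines were led in ENT by Gart (-2.54 ± 0.16 (SE, adjusted p = 4e-05)), of purine synthesis, and in Sec-Pro by Shmt1 (-1.72 ± 0.14 (SE, adjusted p = 0.0001)), of folate metabolism. All 22 measured mitosis genes fell in ENT, with a median of -2.02, and 18 fell in Sec-Pro. These lists were chosen with earlier results known, and no list was tested as a whole. The genes named from them were picked for large called changes, so their adjusted p-values carry that choice.

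Of 7 nucleotide genes that act outside S phase, 3 fell and 1 rose in ENT, with a median of -0.092, where 20.2% of all genes fell and 18.5% rose. Samhd1, which breaks down deoxynucleotides, rose in ENT (1.10 ± 0.17 (SE, adjusted p = 0.0011)) and in Sec-Pro (1.07 ± 0.15 (SE, adjusted p = 0.0019)) against Ent-Pro. Samhd1 is also expressed by leukocytes, whose markers were higher in the same groups, and their part in its level was not tested. Among 26 regulators of entry into S phase, 14 fell and 5 rose in ENT, the rises near the share of all genes (18.5%). Ccne2 (cyclin E2) fell by 2.85 (adjusted p = 0.00042) and Ccnd1 (cyclin D1) by 2.64 (adjusted p = 0.00027), while the cyclin-dependent kinase inhibitor Cdkn1a rose (2.17 ± 0.32 (SE, adjusted p = 0.00077)). In Sec-Pro, 11 of the 26 fell, 2 rose and 13 were not called, where 14.7% of all genes fell and 9.27% rose. The rises were again near the share of all genes. Cdkn1c (2.71 ± 0.23 (SE, adjusted p = 0.00014)) and Cdkn1a (1.64 ± 0.28 (SE, adjusted p = 0.0045)), both inhibitors, rose and Myc (-1.51 ± 0.13 (SE, adjusted p = 0.00016)) fell.

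The promoter words were set beside the differences. In ENT against Ent-Pro the median log2 difference was -2.04 for the 12 members with an E2F word and -1.57 for the 25 measured members without one, and in Sec-Pro it was -0.87 and -0.79. In Sec-Pro against ISC the order was reversed, at -0.63 with the word and -0.74 without. For the CCAAT box the ENT medians against Ent-Pro were -1.80 with (22 members) and -1.51 without (15). For the CHR element they were -1.91 with (6) and -1.65 without (31). These medians describe the list and were not tested.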

How the data were processed

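RNA of 10 samples was hybridised to Affymetrix mouse 430A 2.0 arrays. The values deposited by the authors are on a log2 scale and cover 22690 probe sets, from 2.90 to 15.18. RMA and MAS5 are named, per the submitters' processing notes, without a version or a role. The deposited values were used without further scaling. Names came from the platform's annotation, whose Entrez identifiers matched the reference table for 20351 of 20380; 20393 had 1 symbol, 691 had several and 1606 had none. The 64 control probe sets were left out. Where a gene had several probe sets, the one of highest mean level was used, which gave 12393 genes with no filter on dim genes. All 10 arrays entered a model with 5 group means in limma 3.58.1 (R 4.3.3; lmFit and eBayes), with Sec-Pro as the mean of both Sec-Pro group means and 5 residual degrees of freedom; p-values were adjusted by Benjamini-Hochberg over all genes, and an adjusted p under 0.05 was called. The code was tested on simulated data. A gene within 1 (log2) of the absent controls on every array of a group was called near background there, and given as a bound. The number of arrays limits the precision. All members were named by role, with values on every array for the 3 largest called changes per direction and comparison and for representatives of each role; up to 3 called genes were named per other list. The members were chosen by what their products do, and both the members and the other lists were chosen with earlier results of these data known. Replicate numbers did not pair the samples (correlations of deviations from -0.19 to 0.17). Alternatives were median centring, cyclic loess, a filter on dim genes, the mean of probe sets, only the groups compared, a replicate block, leaving out each array and, added after seeing the data, each Sec-Pro group alone.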

Additional observations from a re-analysis of the deposited data

Results flagged for a closer look

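Members that differed between both Sec-Pro groups by the limma test of that difference were Rfc1, higher in DBZ than in Rbpj Sec-Pro by 1.27 on the log2 scale, Rrm2 (-0.57) and Mcm10 (-0.56). Each group had 2 arrays, and all of these calls were lost in some fits that left out 1 array.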

How the results depend on the processing

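Most called directions were kept when the processing changed, and the counts of members moved most when single arrays were left out. Leaving out each array in turn gave 2 to 5 members lower and 1 to 8 higher in Ent-Pro against ISC, 40 to 43 lower in ENT against Ent-Pro, 13 to 41 lower in Sec-Pro against Ent-Pro, 22 to 33 lower in Sec-Pro against ISC, 25 to 39 higher and 0 to 1 lower in Sec-Pro against ENT, and 0 to 2 lower and 0 to 4 higher in DBZ against Rbpj Sec-Pro. A group left with 1 array was assumed to vary like the others. In Ent-Pro against ISC, 8 members were higher with the mean of a gene's probe sets and 8 with only the groups compared. With DBZ Sec-Pro alone, an alternative added after seeing the data, 1 member (Rfc1) was higher than in Ent-Pro and 1 lower than in ENT. In Sec-Pro against ISC, 1 member was higher under cyclic loess (Orc4) and 1 with the mean of probe sets. Arrays centred on their medians gave 1 member (Gmnn) lower in Sec-Pro than in ENT. In DBZ against Rbpj Sec-Pro, 1 member was lower with the mean of probe sets, 0 with only the groups compared and 0 with the replicate block, and 0 were higher with only the groups compared. The replicate block, run although the replicate numbers did not pair the samples, moved no other count of members by over 1.5 times. With the mean of probe sets Rrm1 turned to 0.47 (adjusted p = 0.034) and Rrm2 to 0.26 (adjusted p = 0.089) in Sec-Pro against ISC, because their probe sets disagree. Median centring moved the median of all genes from -0.018 to 0.10 in Ent-Pro against ISC, from 0.02 to 0.15 in ENT against Ent-Pro and from -0.11 to -0.30 in Sec-Pro against ENT, and the share of higher genes among all calls from 47.3% to 59.9%, from 47.8% to 58.3% and from 43.9% to 26.3%; in Sec-Pro against Ent-Pro that share was 38.6% as deposited, 28.6% centred and 54.3% under cyclic loess, and in Sec-Pro against ISC 39.8% and, under cyclic loess, 53%. The cause of the other moves was not tested. Precision is limited by having 2 arrays per group.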
